A study of Homo sapiens with 32 samples.

Results

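Neutrophil granule proteins are made early in granulocyte development, mainly in the promyelocyte, and are packed into azurophil (primary) granules as the cell matures. The azurophil set is led by myeloperoxidase and by a group of related serine proteases that kill microbes and cut matrix and signalling proteins, and a protein of the specific (secondary) granules normally follows later. Their genes are classical targets of RUNX1, the C/EBP factors and PU.1 (encoded by SPI1), and they stay active in many acute myeloid leukaemias with maturation. The genes described here are the 9 whose symbols are MPO, ELANE, PRTN3, AZU1, CTSG, CFD, RNASE2, RNASE3 and OLFM4, taken by symbol from the 23073 genes measured. All 9 were found and all 9 passed the filter on low values, which 11890 genes passed. RNASE3 reached 1 FPKM in 24 of the 32 libraries and OLFM4 in 16, and the other members reached it in all 32.

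RNA was sequenced from Kasumi-1 and SKNO-1, human acute myeloid leukaemia cell lines in which the RUNX1-RUNX1T1 fusion is present. RN-1, GSK690, GSK690* or DMSO was applied to both for 24 or 72 h, with 2 numbered replicates in each of the 16 groups. RN-1 is an irreversible inhibitor and GSK690 a reversible inhibitor of the histone demethylase KDM1A (LSD1), GSK690* is the isomer of GSK690 that the labels name as inactive, and DMSO at 0.1% is the vehicle. The titles give 1 µM for RN-1, GSK690 and GSK690* alike. Kasumi-1 was grown with 20% fetal calf serum, and SKNO-1 with 10% serum and 10 ng/mL GM-CSF, a cytokine that all SKNO-1 groups therefore share. The later SKNO-1 libraries are titled 72 h, whereas their treatment protocol states 4 days. Below, inhibitors means the 4 RN-1 and GSK690 libraries of a line and time, and controls means the 4 GSK690* and DMSO libraries.

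The values are FPKM, fragments scaled to transcript length and to the size of the library, so levels can be set side by side between genes. Read counts were not used here and the depth is unknown. FPKM summed to 332648 to 395945 per library, and replicates had a Pearson r across genes of 0.986 to 0.996. The authors' sample table gives the opposite line for the 16 libraries at 72 h. The titles in the labels were used, and by them the 72 h libraries had a mean r of 0.974 to 0.986 with their own line at 24 h and of 0.848 to 0.870 with the other line. All 5 myeloid blast markers reached 1 FPKM in Kasumi-1. In SKNO-1 5 reached it with inhibitors and 4 in controls at both times, and CD34 ran from 0.117 to 4.64 FPKM there. Of 8 adherent cell markers, EPCAM stood at 61 to 83.5 FPKM in Kasumi-1 and at or below 0.219 FPKM in SKNO-1, and the others stayed below 1 FPKM. Of 7 monocyte markers, CSF1R and MS4A7 reached 1 FPKM, while CD14 stayed at or below 0.262 FPKM in every library.

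Differences are log2 differences of log2(FPKM + 1), which understate the change of low genes such as RNASE3 and OLFM4, and are given with a 95% interval. They were tested with limma over all genes that passed the filter, and a gene was called at a Benjamini-Hochberg adjusted p under 0.05. In bulk RNA, fewer cells of a type and less RNA per cell cannot be told apart.

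At 72 h in Kasumi-1, 4 granule genes were lower and 1 was higher with the inhibitors. PRTN3 fell to 41.7% and RNASE2 to 40.3% of their control means, RNASE3 to 27.2% and CTSG to 57.6%, and OLFM4 rose to 149%. MPO, AZU1 and CFD were at 102%, 89.8% and 93.2% of their control means and did not pass the test, nor did ELANE at 60.1%. Of the 9 genes 4 were called lower, against 12.7% of the 11887 genes tested, and 1 was called higher, against 13%. The median log2 difference of the 9 was -0.72, against -0.02 over all genes tested. At 24 h in Kasumi-1 only CTSG was called lower (1 of 9, against 11.2% of all genes) and only OLFM4 higher (1 of 9, against 9.69%), and the median of the 9 was -0.03.

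In SKNO-1 limma called 0 of 9 at either time. At 24 h the background was 5.64% called higher and 3.44% called lower, and 0 of 9 had an unadjusted p under 0.05. At 72 h it was 6.91% higher and 4.16% lower, and 3 of 9 (ELANE, PRTN3 and CTSG, all with negative log2 differences) had an unadjusted p under 0.05. The median log2 difference of the 9 was -0.27 at 24 h and -0.41 at 72 h, against -0.02 over all genes at both times.

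**Figure D1:**
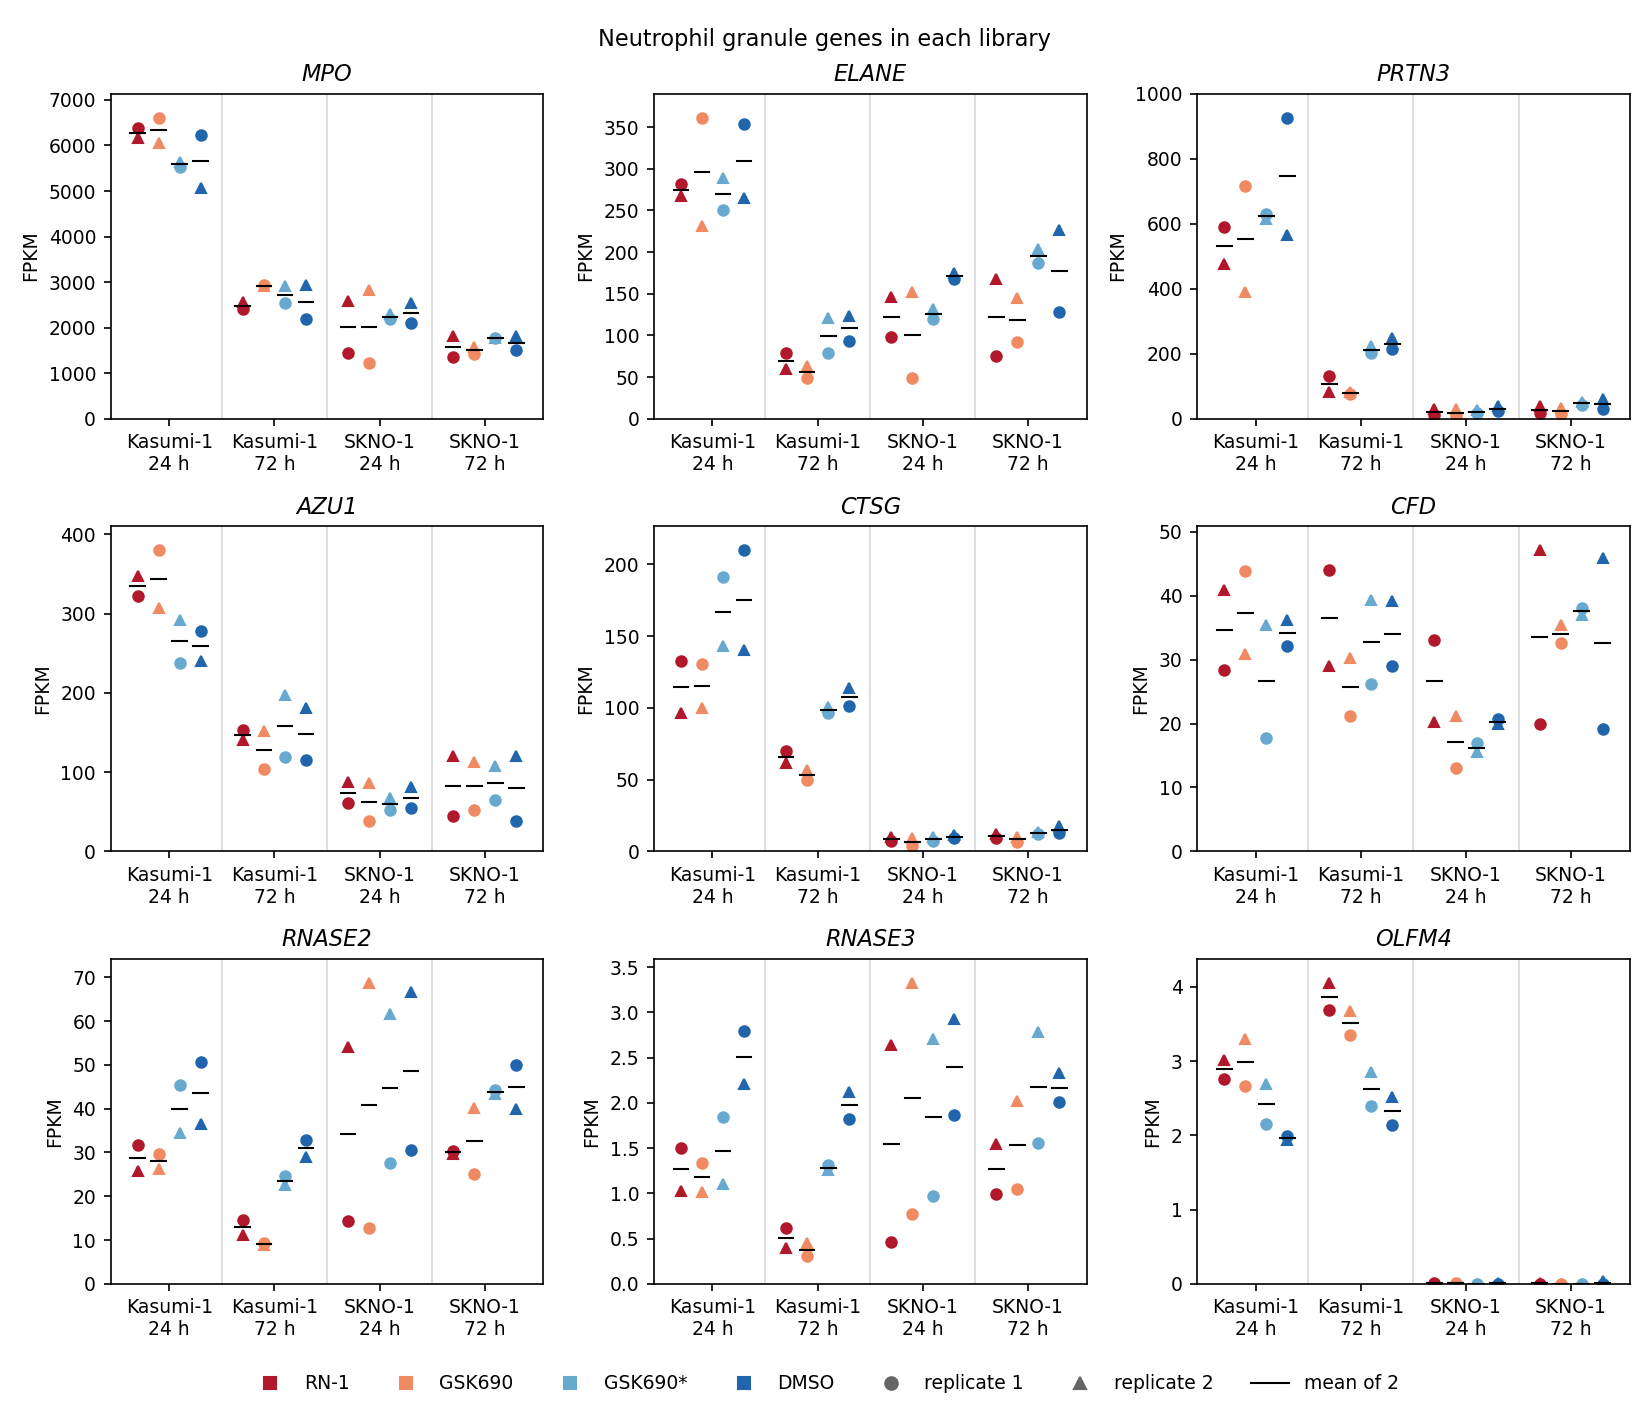
FPKM (linear axis from 0) of each granule gene in every library, by cell line and time, with RN-1, GSK690, GSK690* and DMSO from left to right; circles are replicate 1, triangles replicate 2, and lines the mean of the 2. In Kasumi-1 at 72 h the inhibitor points of PRTN3, CTSG, RNASE2 and RNASE3 lie below all control points and those of OLFM4 above them, and in SKNO-1 at 24 h the replicates of RN-1 and GSK690 stand far apart for several genes.

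MPO encodes myeloperoxidase, the heme enzyme that makes hypochlorous acid from hydrogen peroxide and chloride. Its FPKM in Kasumi-1 at 72 h was 2409.6 and 2562 with RN-1 and 2937 and 2909.5 with GSK690, against 2530.1 and 2909.8 with GSK690* and 2189.6 and 2935 with DMSO. The groups overlapped, and the log2 difference was 0.04 (-0.35 to 0.43; limma adjusted p = 0.913). MPO had the highest FPKM of all genes in every Kasumi-1 library, ranked 1 or 2 in SKNO-1 at 72 h and between 1 and 20 in SKNO-1 at 24 h. The interval reaches down to -0.22 in Kasumi-1 at 24 h, -0.66 in SKNO-1 at 24 h and -0.55 in SKNO-1 at 72 h, around log2 differences of 0.17, -0.27 and -0.16.

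PRTN3 encodes proteinase 3, an elastase-like serine protease and the main autoantigen of one form of vasculitis. PRTN3 in Kasumi-1 at 72 h stood at 130.3 and 80.9 FPKM with RN-1 and 77.3 and 81.9 FPKM with GSK690, against 203 and 223 FPKM with GSK690* and 215 and 248 FPKM with DMSO. All 4 inhibitor libraries lay below all 4 controls. The means were 92.6 ± 25.2 FPKM with inhibitors and 222 ± 18.8 FPKM in controls (SD, n = 4 each), a log2 difference of -1.28 (-2.06 to -0.51; limma adjusted p = 0.0141). Without RN-1 replicate 2 the difference was -1.11 and the call was lost (limma adjusted p = 0.0578).

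The other PRTN3 contrasts did not pass. In Kasumi-1 at 24 h PRTN3 ran from 391 to 717 FPKM with inhibitors and from 565 to 927 FPKM in controls, overlapping ranges, with a log2 difference of -0.34 (limma adjusted p = 0.573). In SKNO-1 at 72 h it was 17.5 and 39.2 FPKM with RN-1 and 15.5 and 34.3 FPKM with GSK690, against 43.2 and 51.9 FPKM with GSK690* and 31.2 and 62.0 FPKM with DMSO. Replicate 1 was the lower of the pair in each of these agents, the inhibitor and control ranges overlapped, and the difference was -0.86 (-1.64 to -0.09; limma adjusted p = 0.139).

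AZU1 encodes azurocidin, a relative of elastase that has lost protease activity and acts as an antimicrobial and chemoattractant. It is the neighbour of PRTN3, and it was not called with inhibitors in Kasumi-1 at 72 h, where PRTN3 was; the difference between the genes was not tested. AZU1 in Kasumi-1 at 72 h ran from 104 to 154 FPKM with inhibitors and from 115 to 197 FPKM in controls, with a log2 difference of -0.13 (-0.84 to 0.58; limma adjusted p = 0.829). In Kasumi-1 at 24 h all 4 inhibitor libraries (307 to 380 FPKM) lay above all 4 controls (238 to 292 FPKM), but the difference of 0.37 did not pass (limma adjusted p = 0.497). It passed, as higher with inhibitors, when these 8 libraries were fitted alone (limma adjusted p = 0.0304) or taken as 2 groups of 4 (limma adjusted p = 0.0115).

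Dividing PRTN3 by AZU1 within each library gave a clearer split, as a description chosen after the values were seen. The ratio of FPKM in Kasumi-1 at 72 h was 0.542, 0.578, 0.742 and 0.848 with inhibitors, against 1.13, 1.37, 1.72 and 1.86 in controls. In Kasumi-1 at 24 h it was 1.27, 1.37, 1.83 and 1.89 with inhibitors, against 2.11, 2.36, 2.64 and 3.33 in controls. In SKNO-1 at 72 h it was 0.296, 0.304, 0.324 and 0.397 with inhibitors, against 0.48, 0.516, 0.673 and 0.804 in controls. The groups did not overlap in these sets. In SKNO-1 at 24 h they did, with 0.185 to 0.353 for inhibitors and 0.322 to 0.485 for controls. A ratio within a library shows that the genes differed unequally and does not show which of them moved.

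**Figure D2:**
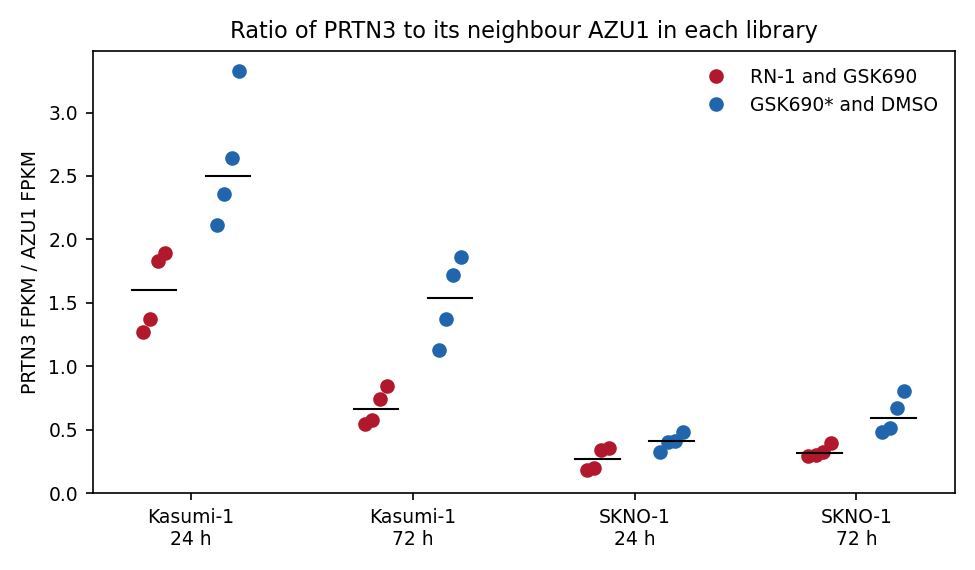
Ratio of PRTN3 FPKM to AZU1 FPKM (linear axis from 0) in each library, with RN-1 and GSK690 (red) left of GSK690* and DMSO (blue) in each line and time, and lines at the medians. The median was 0.66 with inhibitors and 1.54 in controls in Kasumi-1 at 72 h, and 0.314 with inhibitors and 0.595 in controls in SKNO-1 at 72 h.

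AZU1, PRTN3, ELANE and CFD lie side by side on chromosome 19. In hg19, the build of the deposited annotation, AZU1 spans 825096 to 832017, PRTN3 840962 to 848175, ELANE 851013 to 856242 and CFD 859452 to 863453, with gaps of 8944, 2837 and 3209 bp between them. RefSeq promoter sequences (GRCh38.p14, 250 bases before to 50 after the start) were matched by symbol for 7 of the 9 genes. They are shown for PRTN3 and AZU1 because the inhibitor test called the first and not the second in Kasumi-1 at 72 h, with capitals marking the C/EBP motif TTNNGNAA and the SPI1 motif GAGGAA on either strand. The PRTN3 sequence is chr19:840749-841048 and the AZU1 sequence chr19:827587-827886, both on the plus strand.
PRTN3: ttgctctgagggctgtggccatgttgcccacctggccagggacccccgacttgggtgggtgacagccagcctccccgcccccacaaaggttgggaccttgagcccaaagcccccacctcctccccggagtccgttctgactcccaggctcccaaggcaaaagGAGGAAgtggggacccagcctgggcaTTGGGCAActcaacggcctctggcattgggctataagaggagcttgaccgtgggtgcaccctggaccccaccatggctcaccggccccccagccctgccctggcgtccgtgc
AZU1: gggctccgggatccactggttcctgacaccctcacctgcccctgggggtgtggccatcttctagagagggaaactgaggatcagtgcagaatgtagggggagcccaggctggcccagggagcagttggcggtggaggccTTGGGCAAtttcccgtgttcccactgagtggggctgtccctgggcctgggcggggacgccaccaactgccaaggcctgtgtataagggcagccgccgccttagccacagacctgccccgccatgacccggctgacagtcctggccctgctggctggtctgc

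Both windows hold the same letters TTGGGCAA for the C/EBP motif, and the PRTN3 window also holds GAGGAA. Over the 7 promoters matched, the C/EBP motif was found in 5, against 36.8% of 35116 promoters of that length, and the SPI1 motif in 2 (PRTN3 and CTSG), against 27.9%. Of those 5, RNASE2 and RNASE3 hold the same letters TTGCACAA in promoters that are 97.2% identical, so they are not separate instances. The CTSG match to the C/EBP motif begins 17 bases past the start. The GFI1 motif AAATCAC was found in 1 (OLFM4), against 3.14%, and the RUNX1 motif TGTGGT in 0, against 13.1%. No matches overlapped. A match is a run of letters and not a measured binding site.

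ELANE encodes neutrophil elastase, the protease mutated in cyclic and severe congenital neutropenia. At 72 h ELANE in Kasumi-1 was 78.3 and 59.4 FPKM with RN-1 and 49.1 and 63.0 FPKM with GSK690, against 78.3 and 120.6 FPKM with GSK690* and 93.2 and 123 FPKM with DMSO. The highest inhibitor library met the lowest control. The log2 difference was -0.72 (-1.31 to -0.12) and did not pass (limma adjusted p = 0.0689), although it did when only the 8 libraries of this line and time were fitted (limma adjusted p = 0.0235) or when they were taken as 2 groups of 4 (limma adjusted p = 0.0133).

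Elsewhere ELANE was not called. In SKNO-1 at 72 h it ran from 75.6 to 168 FPKM with inhibitors and from 127 to 227 FPKM in controls, with a difference of -0.67 (limma adjusted p = 0.138). At 24 h the difference was -0.03 in Kasumi-1 and -0.52 in SKNO-1.

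CFD encodes complement factor D (adipsin), the serine protease that cleaves factor B in the alternative complement pathway. CFD in Kasumi-1 at 72 h ran from 21.1 to 44.1 FPKM with inhibitors and from 26.1 to 39.3 FPKM in controls. Its ranges overlapped in every line and time, and its log2 differences lay between -0.12 and 0.26.

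Within 100 kb of the 9 genes the annotation lists 27 other genes, of which 13 were tested. With inhibitors in Kasumi-1 at 72 h, 3 of these were lower, against 12.7% of all genes, and 1 was higher, against 13%. LPPR3 fell by 0.62 on the log2 scale (limma adjusted p = 0.0288) and PTBP1, a splicing regulator, fell by 0.26 (limma adjusted p = 0.0378). Both lie on the AZU1 side of the chromosome 19 group. MKS1 near MPO fell by 0.27, and NDRG2 near the RNase genes rose. At 24 h in Kasumi-1 LPO, the lactoperoxidase gene next to MPO, rose by 0.41 (limma adjusted p = 0.0487). At 72 h in SKNO-1 EPX, the eosinophil peroxidase gene on the far side of MKS1 from LPO, fell by 0.67 (limma adjusted p = 0.0326). ARID3A fell in SKNO-1 at 24 h. Each of these was the 1 of 13 called in its set, against 9.69% of all genes called higher in Kasumi-1 at 24 h, 4.16% called lower in SKNO-1 at 72 h and 3.44% called lower in SKNO-1 at 24 h.

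**Figure D3:**
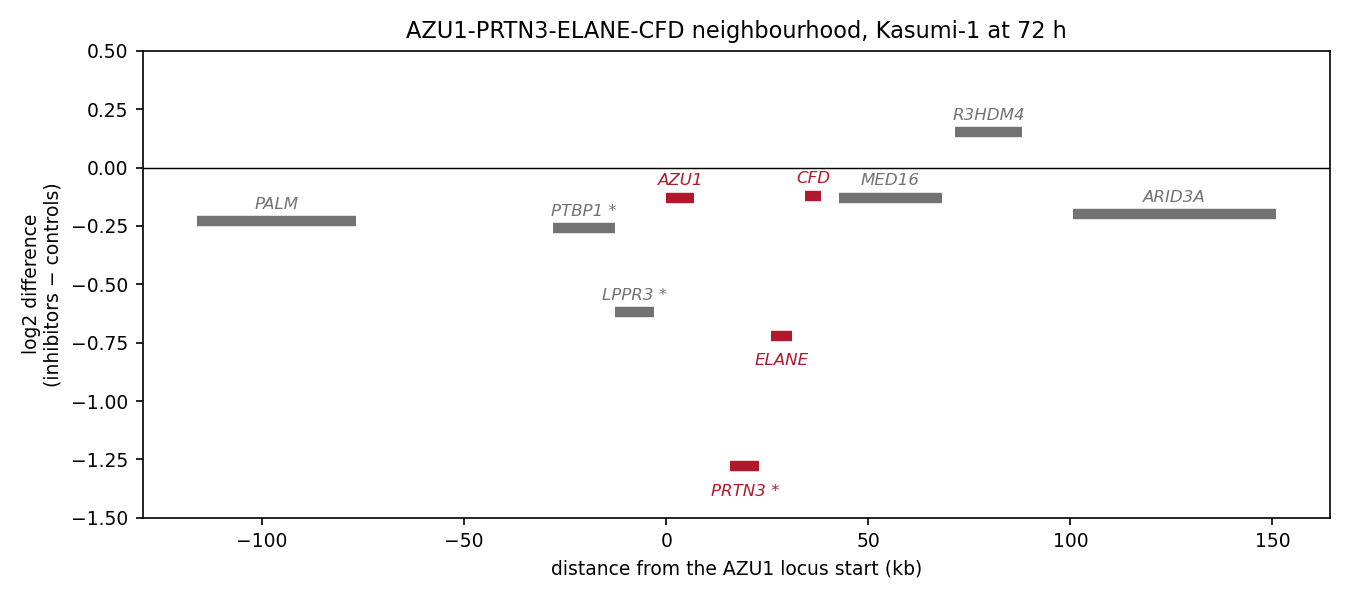
Log2 difference between inhibitors and controls in Kasumi-1 at 72 h (vertical axis) for each tested gene within 100 kb of the chromosome 19 group, against distance from the start of the AZU1 locus in kb; bars span each locus, granule genes are red, other genes grey, and a star marks a called gene. PRTN3 (-1.28) and ELANE (-0.72) lie low between AZU1 (-0.13) and CFD (-0.12).

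CTSG encodes cathepsin G, a chymotrypsin-like azurophil protease. CTSG in Kasumi-1 at 72 h was 70.2 and 61.3 FPKM with RN-1 and 49.6 and 56.7 FPKM with GSK690, against 96.4 and 100.8 FPKM with GSK690* and 101 and 114 FPKM with DMSO. All 4 inhibitor libraries lay below all 4 controls, with means of 59.4 ± 8.65 FPKM with inhibitors and 103 ± 7.62 FPKM in controls (SD, n = 4 each). The log2 difference was -0.79 (-1.20 to -0.39; limma adjusted p = 0.00496).

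At 24 h in Kasumi-1 CTSG was 132 and 96.4 FPKM with RN-1 and 130.3 and 99.7 FPKM with GSK690, against 191 and 143 FPKM with GSK690* and 210 and 141 FPKM with DMSO. The groups did not overlap, and the difference was -0.57 (limma adjusted p = 0.0443). This call was lost under most other settings, with a limma adjusted p of 0.0626 at a pseudocount of 0.1, 0.123 after quantile normalization and 0.215 without DMSO replicate 1. In SKNO-1 CTSG was a low gene, at 3.81 to 9.73 FPKM with inhibitors and 7.34 to 11.3 FPKM in controls at 24 h. At 72 h it was 9.45 and 11.97 FPKM with RN-1 and 6.79 and 10.1 FPKM with GSK690, against 11.96 and 13.7 FPKM with GSK690* and 12.7 and 17.5 FPKM with DMSO. The difference at 72 h was -0.51 (-0.92 to -0.10; limma adjusted p = 0.0984).

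RNASE2 (eosinophil-derived neurotoxin) and RNASE3 (eosinophil cationic protein) encode paralogous ribonucleases, best known from eosinophil granules and also made in neutrophil precursors. They lie 63102 bp apart on chromosome 14 (hg19, RNASE3 at 21359557 to 21360507 and RNASE2 at 21423610 to 21424595). Their GENCODE transcripts matched at 640 of 720 aligned bases (88.9%), with a longest identical run of 67 bases. How reads common to both were shared out is not given in the sources used here, so the split between them is uncertain. Their RefSeq promoters matched at 242 of 249 aligned bases (97.2%) and are shown because the pair fell together. Capitals mark the C/EBP motif, read on the minus strand, in RNASE2 (chr14:20955237-20955536, GRCh38.p14, plus strand) and RNASE3 (chr14:20891135-20891434, plus strand).
RNASE2: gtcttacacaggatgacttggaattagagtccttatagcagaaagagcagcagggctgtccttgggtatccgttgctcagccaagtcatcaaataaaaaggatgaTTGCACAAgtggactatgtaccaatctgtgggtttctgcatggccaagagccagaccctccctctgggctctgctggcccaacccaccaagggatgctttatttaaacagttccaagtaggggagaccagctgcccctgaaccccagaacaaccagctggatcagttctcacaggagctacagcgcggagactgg
RNASE3: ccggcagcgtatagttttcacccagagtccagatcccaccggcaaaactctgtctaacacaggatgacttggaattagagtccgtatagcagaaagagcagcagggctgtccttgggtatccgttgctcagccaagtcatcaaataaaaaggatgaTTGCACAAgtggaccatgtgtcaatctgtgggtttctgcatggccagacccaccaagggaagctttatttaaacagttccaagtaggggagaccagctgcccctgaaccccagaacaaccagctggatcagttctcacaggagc

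RNASE2 in Kasumi-1 at 72 h was 14.6 and 11.1 FPKM with RN-1 and 9.43 and 8.81 FPKM with GSK690, against 24.6 and 22.6 FPKM with GSK690* and 32.8 and 29.05 FPKM with DMSO. All inhibitor libraries lay below all controls, and the log2 difference was -1.25 (-2.05 to -0.44; limma adjusted p = 0.0214). The call was lost when DMSO replicate 1, GSK690* replicate 1, RN-1 replicate 2 or GSK690 replicate 2 was left out, with limma adjusted p between 0.0608 and 0.0689.

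RNASE3 in the same libraries was 0.619 and 0.397 FPKM with RN-1 and 0.303 and 0.454 FPKM with GSK690, against 1.32 and 1.25 FPKM with GSK690* and 1.83 and 2.13 FPKM with DMSO. The groups again did not overlap, and the difference was -0.86 (-1.41 to -0.31; limma adjusted p = 0.0207). That call was lost without GSK690* replicate 1, GSK690 replicate 1, DMSO replicate 2 or RN-1 replicate 2, with limma adjusted p between 0.0556 and 0.062.

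At 24 h in Kasumi-1 RNASE2 ran from 25.8 to 31.7 FPKM with inhibitors and from 34.4 to 50.7 FPKM in controls. These ranges did not overlap, yet the difference of -0.53 did not pass (limma adjusted p = 0.371). It passed, as lower, when these 8 libraries were fitted alone (limma adjusted p = 0.0265) or taken as 2 groups of 4 (limma adjusted p = 0.0108). RNASE3 overlapped, at 1.02 to 1.503 FPKM with inhibitors and 1.10 to 2.80 FPKM in controls.

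The SKNO-1 libraries at 24 h split by replicate number for these genes. RNASE2 was 14.4 FPKM in RN-1 replicate 1 and 12.7 FPKM in GSK690 replicate 1, against 27.6 and 30.5 FPKM in replicate 1 of GSK690* and DMSO. In replicate 2 it was 54.0 FPKM with RN-1 and 68.8 FPKM with GSK690, against 61.7 FPKM with GSK690* and 66.6 FPKM with DMSO. The replicate 1 inhibitor libraries thus lay below every control, and those of replicate 2 did not. MPO in replicate 1 was likewise 1445 FPKM with RN-1 and 1218 FPKM with GSK690, against 2194 FPKM with GSK690* and 2108 FPKM with DMSO. In replicate 2 MPO was 2584 FPKM with RN-1 and 2816 FPKM with GSK690, against 2288 FPKM with GSK690* and 2537 FPKM with DMSO. Without GSK690 replicate 2 the log2 differences were -0.57 for MPO, -0.93 for ELANE, -0.63 for CTSG and -1.15 for RNASE2. With all 8 libraries they were -0.27, -0.52, -0.36 and -0.56 in that order. GSK690 replicate 2 held the highest MPO and RNASE2 of the set. Leaving it out gave the lowest estimates of any setting for these genes, and other settings reached up to 0.04, -0.12, -0.09 and 0.03.

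OLFM4 encodes olfactomedin 4, a glycoprotein of a subset of neutrophils stored in specific granules. It was a low gene that reached 1 FPKM in Kasumi-1 alone. At 72 h it was 3.68 and 4.06 FPKM with RN-1 and 3.35 and 3.68 FPKM with GSK690, against 2.40 and 2.86 FPKM with GSK690* and 2.14 and 2.52 FPKM with DMSO. All inhibitor libraries lay above all controls, and the log2 difference was 0.43 (0.28 to 0.59; limma adjusted p = 0.000162). At 24 h it was 2.76 and 3.02 FPKM with RN-1 and 2.66 and 3.30 FPKM with GSK690, against 2.16 and 2.69 FPKM with GSK690* and 1.99 and 1.93 FPKM with DMSO. One GSK690* library lay within the inhibitor range, and the difference was 0.30 (0.15 to 0.46; limma adjusted p = 0.00519). With a pseudocount of 0.1 that call was lost (limma adjusted p = 0.0562). In SKNO-1 OLFM4 ran from 0 to 0.0174 FPKM with inhibitors and from 0 to 0.0327 FPKM in controls, too low for a fold.

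**Figure D4:**
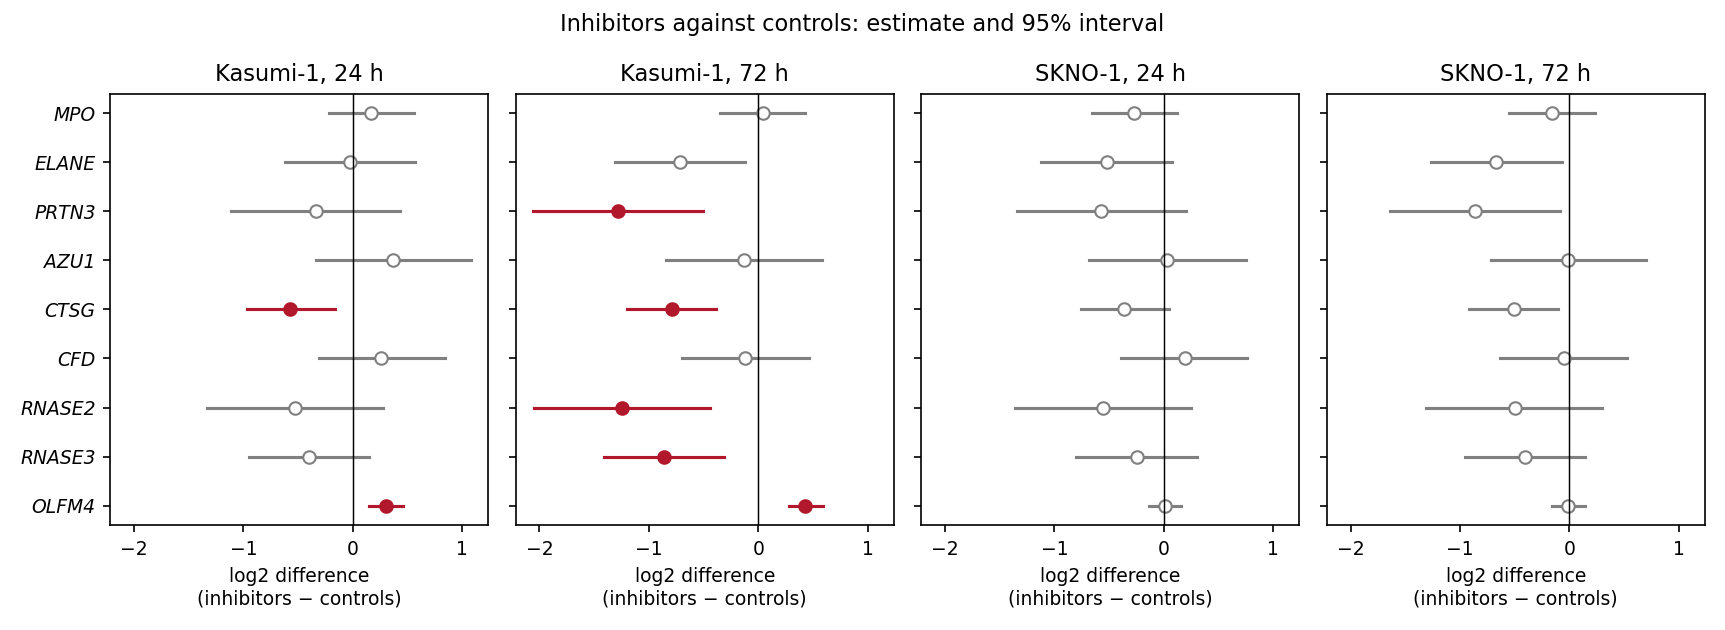
Log2 difference of log2(FPKM + 1) between inhibitors and controls (4 libraries each) for each granule gene, with 95% intervals, by line and time; filled red points are called and open grey points are not. In Kasumi-1 at 72 h PRTN3, CTSG, RNASE2 and RNASE3 are called lower and OLFM4 higher, and in SKNO-1 none is called.

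The inhibitor effect was compared between lines and times as interaction terms. Between the lines at 72 h (Kasumi-1 minus SKNO-1) 1 of 9 differed, against 3.47% of all genes, and that was OLFM4 by 0.44 (0.23 to 0.66; limma adjusted p = 0.0158). OLFM4 passed the filter through Kasumi-1 alone and was at or near 0 FPKM in SKNO-1, where log2(FPKM + 1) could hardly move, so this value restates the Kasumi-1 difference. The call was lost with a pseudocount of 0.1 (limma adjusted p = 0.149), with quantile normalization (limma adjusted p = 0.0664) and without Kasumi-1 DMSO replicate 1 or GSK690* replicate 1 (limma adjusted p = 0.0516 and 0.0561). The difference for PRTN3 was -0.42 (-1.51 to 0.67) and for RNASE2 -0.74 (-1.88 to 0.40), so the calls made in Kasumi-1 alone were not shown to differ from SKNO-1 for these genes. At 24 h 0 of 9 differed between the lines by limma, against 1.12% of all genes, with 1 of 9 at an unadjusted p under 0.05. Between 72 and 24 h limma called 0 of 9 in Kasumi-1, against 0.202% of all genes, and 0 of 9 in SKNO-1, against 0%, with 0 of 9 at an unadjusted p under 0.05 in both. The largest such estimate was PRTN3 in Kasumi-1, at -0.94 (-2.03 to 0.15).

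Single agents were compared at matched times in 4 pairs per line and time, with p adjusted over all genes tested in each. Between RN-1 and DMSO, Kasumi-1 had 1 of 9 called at 24 h (against 9.08% of all genes) and 1 of 9 at 72 h (against 12.1%). OLFM4 was the gene both times, higher by 0.39 at 24 h and by 0.55 (0.34 to 0.77; limma adjusted p = 0.00103) at 72 h. The 24 h call was lost without any 1 of the RN-1 or DMSO libraries. In Kasumi-1 2 of 9 at 24 h (against 2842 of 11889 genes) and 5 of 9 at 72 h (against 3107 of 11888) had an unadjusted p under 0.05 by limma. The 4 genes called lower with both inhibitors at 72 h were at -1.21 (RNASE2), -1.16 (PRTN3), -0.98 (RNASE3) and -0.70 (CTSG) in this pair. None of these 4 passed adjustment. In SKNO-1 limma called 0 of 9 for this pair at 24 h (against 2.25%) and at 72 h (against 3.47%), with 0 of 9 at an unadjusted p under 0.05.

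GSK690 against its isomer GSK690* had 0 of 9 called at 24 h in Kasumi-1 (against 3.94%), with 1 of 9 at an unadjusted p under 0.05 by limma, and 1 of 9 at 72 h (against 9.75%). That gene was CTSG, at 53.1 FPKM on average with GSK690 and 98.6 FPKM with GSK690*, a log2 difference of -0.88 (-1.46 to -0.31; limma adjusted p = 0.0472). The CTSG call was lost without any 1 of the GSK690 or GSK690* libraries. PRTN3 averaged 79.6 FPKM with GSK690 and 213 FPKM with GSK690*, a difference of -1.41 (-2.50 to -0.32) that did not pass (limma adjusted p = 0.0942). In this pair at 72 h 4 of 9 had an unadjusted p under 0.05 by limma, against 2943 of 11889 genes. In SKNO-1 limma called 0 of 9 at 24 h (against 1.63%) and at 72 h (against 2.83%), with 0 of 9 at an unadjusted p under 0.05.

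The remaining pairs set inhibitor against inhibitor and control against control. Between RN-1 and GSK690 limma called 0 of 9 in all 4 sets, against 0% of all genes in Kasumi-1 at 24 h and in SKNO-1 at both times and 0.00841% in Kasumi-1 at 72 h. None of the 9 had an unadjusted p under 0.05 in any set. In Kasumi-1 at 72 h the difference was 0.36 (-0.73 to 1.46) for PRTN3, 0.30 (-0.27 to 0.88) for CTSG and 0.11 (-0.11 to 0.32) for OLFM4. Between GSK690* and DMSO limma called 0 of 9 in all 4 sets, against 0% of all genes, with 0 of 9 at an unadjusted p under 0.05. That difference in Kasumi-1 at 72 h was -0.12 (-1.21 to 0.97) for PRTN3, -0.38 (-1.51 to 0.76) for RNASE2 and -0.12 (-0.70 to 0.45) for CTSG.

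**Figure D5:**
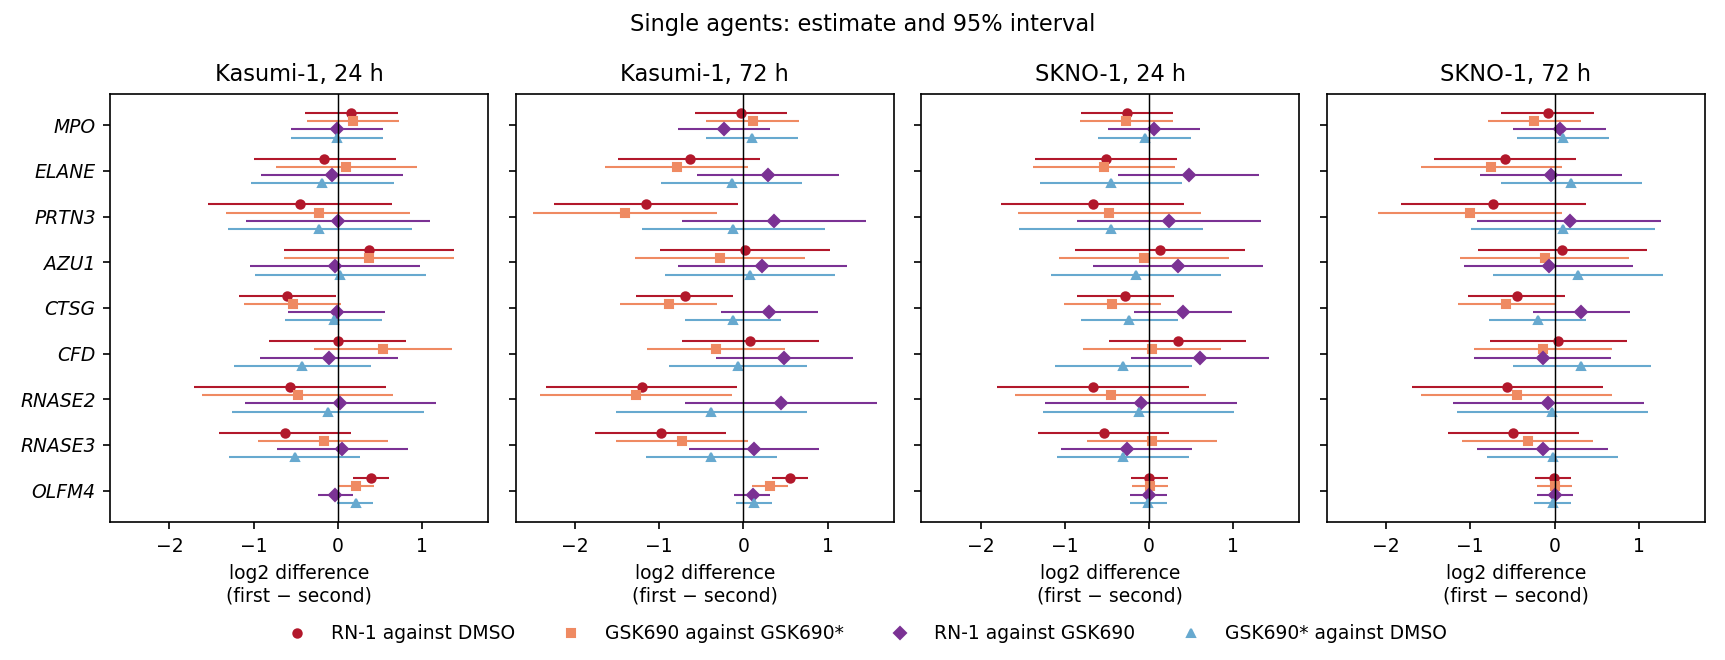
Log2 difference of log2(FPKM + 1) with 95% interval for each granule gene in RN-1 against DMSO, GSK690 against GSK690*, RN-1 against GSK690 and GSK690* against DMSO (2 libraries each), by line and time. In Kasumi-1 at 72 h the estimates for PRTN3 lie at -1.16, -1.41, 0.36 and -0.12 in that order of pairs.

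The lines themselves differed in their granule genes. In control libraries at 24 h 7 of 9 were higher in Kasumi-1 than in SKNO-1, against 30.9% of all genes, and 0 of 9 lower, against 38.2%. PRTN3 averaged 684 ± 164 FPKM in Kasumi-1 and 26.5 ± 9.46 FPKM in SKNO-1 (SD, n = 4 each), a log2 difference of 4.67 (limma adjusted p = 2.29e-10). CTSG averaged 171 ± 34.8 FPKM in Kasumi-1 and 9.39 ± 1.66 FPKM in SKNO-1, a difference of 4.04. The difference was 2.03 for AZU1, 1.30 for MPO, 0.96 for ELANE and 0.66 for CFD. OLFM4 was the other gene called higher, by 1.67. OLFM4 passed the filter through Kasumi-1 alone and was at or near 0 FPKM in SKNO-1, so a call could only be higher. The CFD call was lost with no filter and without any 1 of 7 of the 8 control libraries, the exception being Kasumi-1 GSK690* replicate 1 (limma adjusted p up to 0.218). With quantile normalization the MPO call was lost (limma adjusted p = 0.339). That setting gives the top gene of every library the same value. MPO ranked at or near the top in these libraries, so the setting could hardly show an MPO difference. RNASE2 and RNASE3 were not called, at -0.07 (-0.87 to 0.74) and -0.04 (-0.59 to 0.51).

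At 72 h 5 of 9 were higher in Kasumi-1, against 32.6% of all genes, and 1 of 9 was lower, against 38.2%. CTSG (2.81), PRTN3 (2.25), OLFM4 (1.78), AZU1 (0.97) and MPO (0.61) were the higher ones. For OLFM4, which passed the filter through Kasumi-1 alone and stayed at or below 0.0327 FPKM in SKNO-1, a call could only be higher. ELANE was the lower one, at 104 ± 21.8 FPKM in Kasumi-1 and 186 ± 42.5 FPKM in SKNO-1 (log2 difference -0.83, limma adjusted p = 0.0134). That call was lost without Kasumi-1 DMSO replicate 1, Kasumi-1 GSK690* replicate 1 or SKNO-1 DMSO replicate 2, with limma adjusted p of 0.0534, 0.0674 and 0.0811. The AZU1 call was lost without Kasumi-1 DMSO or GSK690* replicate 2 or SKNO-1 DMSO or GSK690* replicate 1, with limma adjusted p of 0.0725 to 0.144. The MPO call was lost with quantile normalization. MPO had the highest FPKM in every control library at this time, so that setting fixed its difference in advance and cannot test it. The 24 and 72 h libraries carry different name prefixes in the labels, so time and library set cannot be told apart for levels. SKNO-1 at 72 h is itself split, with CM for DMSO replicate 1 and RN-1 replicate 1 and CP for the rest. Kasumi-1 at 72 h carries CM throughout. With a term for this prefix, none of the 9 passed for the inhibitors in SKNO-1 at 72 h. The limma adjusted p was 0.0782 for ELANE, 0.0822 for CTSG and 0.0981 for PRTN3.

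Ranked by mean FPKM in controls, Kasumi-1 at 24 h ran from MPO (5619) through PRTN3 (684), ELANE (289), AZU1 (262), CTSG (171), RNASE2 (41.7), CFD (30.4) and OLFM4 (2.19) to RNASE3 (1.99). Neighbours whose ranges overlapped were ELANE and AZU1, RNASE2 and CFD, and OLFM4 and RNASE3. In SKNO-1 at 24 h ELANE (148) came second to MPO (2282), and AZU1 (64), RNASE2 (46.6), PRTN3 (26.5) and CFD (18.3) followed with each overlapping the next, above CTSG (9.39) and RNASE3 (2.12). Together the 9 genes held 1.98% to 2.22% of a library's FPKM with inhibitors and 1.77% to 2.11% in controls in Kasumi-1 at 24 h. At 72 h they held 0.748% to 0.934% with inhibitors and 0.759% to 1.02% in controls. In SKNO-1 they held 0.378% to 0.882% with inhibitors and 0.664% to 0.845% in controls at 24 h. At 72 h in SKNO-1 they held 0.4175% to 0.6058% with inhibitors and 0.4826% to 0.6171% in controls. MPO alone held 1.41% to 1.77% in the Kasumi-1 libraries at 24 h. The summed share there was thus mostly MPO, which was not called with the inhibitors.

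Across the 16 group means, the gene whose profile was most like PRTN3 by Pearson r was PROS1 (0.986), like CTSG RET (0.994), like AZU1 SLPI (0.988), like MPO RPL27A (0.973) and like ELANE TMEM154 (0.956). For OLFM4 it was VNN1 (0.999), for RNASE2 HSPA8 (0.911), for RNASE3 UBE2J1 (0.899) and for CFD CCDC85B (0.893). The second genes were HSPA5 for PRTN3, HSPD1 for CTSG, LDHD for AZU1, RPS13 for MPO, COL9A3 for ELANE, MYO18B for OLFM4, CCDC58 for RNASE2, NME1 for RNASE3 and GRIK5 for CFD. Among the members, PRTN3 and CTSG had r = 0.970, PRTN3 and AZU1 had r = 0.966, and RNASE2 and RNASE3 had r = 0.932, while RNASE2 had r = -0.052 with PRTN3. These values describe 16 means that share line, time and library set. For OLFM4, at or near 0 FPKM in SKNO-1, a high r mainly marks genes on in Kasumi-1 alone. The median was 7.56 FPKM in Kasumi-1 and 0.0109 FPKM in SKNO-1 for VNN1, and 6.32 and 0 FPKM for MYO18B.

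Other azurophil granule genes were uneven in level. Of 8 listed genes 3 were tested, and the defensin genes DEFA1, DEFA1B, DEFA3 and DEFA4 stayed at or below 0.0772 FPKM. For this and the other gene lists, calls stand beside the following shares of all genes tested. In Kasumi-1, 9.69% were called higher and 11.2% lower at 24 h, and 13% higher and 12.7% lower at 72 h. In SKNO-1, 5.64% were called higher and 3.44% lower at 24 h, and 6.91% higher and 4.16% lower at 72 h. LYZ, the lysozyme gene, rose in all 4 sets. In Kasumi-1 it averaged 122 FPKM with inhibitors and 15.4 FPKM in controls at 24 h (log2 difference 3.01) and 67.7 FPKM with inhibitors and 11.8 FPKM in controls at 72 h (2.48). In SKNO-1 its log2 difference was 1.27 at 24 h and 1.39 at 72 h (limma adjusted p = 8.45e-06). PRSS57, an elastase-like azurophil protease, and CD63, an azurophil membrane protein, were tested and not called. Both were high, with PRSS57 at 240 to 529 FPKM in Kasumi-1 and 153 to 314 FPKM in SKNO-1. CD63 stood at 127 to 161 FPKM in Kasumi-1 and 140 to 188 FPKM in SKNO-1.

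Of 19 specific and gelatinase granule genes 5 were tested. LTF, CAMP, LCN2 and MMP8 (lactoferrin, cathelicidin, lipocalin 2 and neutrophil collagenase) stayed at or below 0.0985 FPKM in every library. CYBA was high, at 205 to 299 FPKM in Kasumi-1 and 189 to 373 FPKM in SKNO-1. CEACAM6 stood at 4.84 to 17.6 FPKM in SKNO-1 and at or below 0.0641 FPKM in Kasumi-1. PTX3, a pentraxin, was the 1 gene called, higher in SKNO-1 at 72 h by 0.31.

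Of 13 genes that process, store or inhibit granule proteins 11 were tested. SERPINB1, an inhibitor of elastase, cathepsin G and proteinase 3, rose in Kasumi-1 by 0.25 at 24 h and by 0.19 at 72 h. SERPINA1, alpha-1-antitrypsin, averaged 14.6 ± 2.72 FPKM with inhibitors and 30.7 ± 3.86 FPKM in controls in Kasumi-1 at 72 h (log2 difference -1.03; limma adjusted p = 4.7e-05) and was also lower in SKNO-1 at 72 h (-0.58). CTSC, the dipeptidyl peptidase that activates these proteases, fell by 0.17 in Kasumi-1 at 24 h and by 0.26 in SKNO-1 at 72 h. SRGN, the proteoglycan needed in mice to store elastase in granules, fell by 0.57 in SKNO-1 at 72 h. CANX, a chaperone, fell by 0.24 in SKNO-1 at 24 h.

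Of 15 granulocytic transcription factors 13 were tested. GFI1, a repressor that recruits KDM1A, rose in all 4 sets, with log2 differences of 0.53 (24 h) and 0.63 (72 h) for Kasumi-1 and of 0.45 (24 h) and 0.50 (72 h) for SKNO-1. CEBPE, which drives late granule genes, averaged 13.1 ± 3.11 FPKM with inhibitors and 18.7 ± 1.04 FPKM in controls in Kasumi-1 at 72 h (log2 difference -0.51; limma adjusted p = 0.0283). In SKNO-1 at 72 h CEBPE averaged 23.5 FPKM with inhibitors and 33.5 FPKM in controls (limma adjusted p = 0.0558). CEBPA stayed at or below 4.06 FPKM, and neither CEBPA nor SPI1 was called in any set. IRF8, a monocytic and dendritic factor, rose in Kasumi-1 by 0.43 at 24 h and by 0.83 at 72 h. GATA2 rose in SKNO-1 by 0.72 at 24 h and by 0.86 at 72 h. LEF1 rose and CEBPD fell in SKNO-1 at 72 h.

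RNASE6, the 1 tested of 11 other genes of the RNase A family, went the other way from RNASE2 and RNASE3. It rose in Kasumi-1 at 72 h, to 0.771 FPKM with inhibitors against 0.202 FPKM in controls (log2 difference 0.55; limma adjusted p = 0.0122). It also rose in SKNO-1, by 1.00 at 24 h and 0.89 at 72 h.

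Markers of other blood cells moved with the inhibitors beside these results. The summed FPKM of the 7 monocyte markers was 21 to 26 with inhibitors and 7.06 to 9.3 in controls in Kasumi-1 at 72 h, with 2 of 7 genes reaching 1 FPKM and the rest below it. In Kasumi-1 at 24 h it was 19.3 to 20.5 with inhibitors and 6.04 to 9.16 in controls. In SKNO-1 at 72 h it was 2.12 to 3.25 with inhibitors and 1.09 to 1.52 in controls. The summed megakaryocyte markers in SKNO-1 at 72 h, where 1 of 5 genes reached 1 FPKM, were 26.5 to 48.5 with inhibitors and 11 to 28.1 in controls. That gene was ITGA2B, at 10.7 to 47.8 FPKM over the SKNO-1 libraries, so the sum was mostly ITGA2B. Other sums also lay higher with inhibitors in some sets. For T and NK cells in Kasumi-1 at 72 h the sum was 2.42 to 3.45 with inhibitors and 0.982 to 1.76 in controls. For B cells in Kasumi-1 at 24 h it was 3.85 to 4.46 and 2.03 to 3.19. For myeloid blasts in SKNO-1 at 72 h it was 250 to 272 and 227 to 241. Erythroid and adherent cell sums overlapped in every set. The part of these markers in the granule gene differences was not tested.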

How the data were processed

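The authors deposited FPKM per gene and library, a gene annotation and a sample table. The submitters' processing notes name TopHat 1.4.1, Cufflinks and hg19. Library type, strand, annotation release and depth are not given in the sources used here, so no counting interval was computed, and p-values measure the spread between the 2 numbered replicates of each group.

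The fit held genes that reached 1 FPKM in 2 or more libraries. limma 3.58.1 (R 4.3.3) was run on log2(FPKM + 1), a pseudocount of 1 (16 group means, variance trend, 16 residual and 5.23 prior degrees of freedom). Contrasts were inhibitors against controls and single agents within a line and time, the difference of the inhibitor effect between lines and between times, and Kasumi-1 against SKNO-1 in the control libraries of a time. Tests were 2-sided, with Benjamini-Hochberg adjustment over all tested genes of a contrast at 0.05. The deposited values are blank for 30 genes in 102 cells, none of them members, and these were left out of each gene's fit. The fit was tested on simulated data.

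The members and lists were chosen with earlier results of these data known. Named genes are the 9 members, 5 followed genes (KDM1A, GFI1, CEBPE, CEBPA, SPI1), up to 3 called genes per list and set with the largest change, and the 2 genes most like each member. Alternatives were a pseudocount of 0.1, no filter, quantile normalization, median of ratios scaling, a replicate block, the 8 libraries of a set alone, 2 groups of 4, DMSO alone as control, a library prefix term in SKNO-1 at 72 h, and each library left out. Biopython 1.88, pandas 2.3.3, numpy 2.4.6 and matplotlib 3.10.9 in Python 3.11.15 were used for sequences, tables and figures.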

Additional observations from a re-analysis of the deposited data

Results flagged for a closer look

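OLFM4 was the 1 member whose inhibitor difference was called as unlike between the lines, in a test of the difference itself. At 72 h its log2 difference was 0.43 in Kasumi-1 and -0.01 in SKNO-1, where it was at or near 0 FPKM in every library, and the difference between the lines was 0.44 (limma adjusted p = 0.0158). OLFM4 passed the filter on low values through Kasumi-1 alone, and log2(FPKM + 1) could hardly move in SKNO-1 at 0 to 0.0327 FPKM, so the value restates the Kasumi-1 difference. The call was lost with a pseudocount of 0.1 (limma adjusted p = 0.149) and with quantile normalization (limma adjusted p = 0.0664).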

How the results depend on the processing

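No member changed direction among its called results. Of 585 repeats of the members' inhibitor tests under other settings, 543 stayed on the same side of the threshold, 21 gained a call and 21 lost one. For the inhibitors in Kasumi-1 at 24 h the number of members called, 2 as reported, was 0 with a pseudocount of 0.1, 1 with no filter, quantile normalization, median of ratios or DMSO alone as control, 4 as 2 groups of 4, and 1 to 2 with 1 library left out. In Kasumi-1 at 72 h it was 5 as reported and 2 to 5 with 1 library left out, with 2 without RN-1 replicate 2 and 3 without GSK690* replicate 1. In SKNO-1 at 24 h it was 0 as reported and 0 to 4 with 1 library left out. For RN-1 against DMSO in Kasumi-1 at 24 h it was 1 as reported, 0 with a pseudocount of 0.1 or quantile normalization, and 0 without each library. For GSK690 against GSK690* in Kasumi-1 at 72 h it was 1 as reported, 0 with a pseudocount of 0.1, quantile normalization or median of ratios, and 0 without each library. In SKNO-1 at 24 h this pair had 0 as reported and 0 to 1 with 1 library left out. For the difference between the lines at 72 h it was 1 as reported, 0 with a pseudocount of 0.1 or quantile normalization, and 0 to 1 with 1 library left out (0 without Kasumi-1 DMSO replicate 1 or GSK690* replicate 1). The causes were not tested.

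Replicate numbers are not stated to pair cultures. Replicate differences of 2 agents had r of 0.133 to 0.45 in Kasumi-1 at 24 h, 0.0431 to 0.481 at 72 h, 0.294 to 0.525 in SKNO-1 at 24 h and 0.144 to 0.697 at 72 h. With a replicate block the inhibitor counts were 4 in Kasumi-1 at 24 h, 6 at 72 h, 3 in SKNO-1 at 24 h and 5 at 72 h. With the block, RN-1 against DMSO had 3 in Kasumi-1 at 24 h, 5 at 72 h and 1 in SKNO-1 at 24 h, GSK690 against GSK690* had 1 in Kasumi-1 at 24 h, 5 at 72 h and 2 in SKNO-1 at 72 h, and the difference between the lines at 24 h had 1.

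Over all genes, the inhibitors in Kasumi-1 at 24 h called 2479, against 3733 with the replicate block, 3832 as 2 groups of 4, and 1498 to 1546 without DMSO replicate 1, GSK690* replicate 1, RN-1 replicate 2 or GSK690 replicate 2. In Kasumi-1 at 72 h they called 3052, and 2022 without DMSO replicate 1. In SKNO-1 at 24 h they called 1080, against 2306 with the block, 160 from its 8 libraries alone, 491 as 2 groups of 4, 668 with DMSO alone as control, and 387 to 571 without DMSO replicate 1 or 2, RN-1 replicate 1, GSK690 replicate 1 or GSK690* replicate 2. In SKNO-1 at 72 h they called 1316, against 2715 with the block, 400 from 8 libraries, 799 as 2 groups of 4, 860 without DMSO replicate 1 and 871 without GSK690* replicate 1. Depth is unknown, so how far it limits RNASE3 and OLFM4 was not tested.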

Other observations

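Granule genes of other lineages were measured beside these. Of 8 eosinophil, basophil and mast cell granule genes 6 were tested. In SKNO-1 at 72 h 3 were higher with the inhibitors, against 6.91% of all genes, and 2 were lower, against 4.16%. CPA3, mast cell carboxypeptidase, averaged 29.6 ± 7.87 FPKM with inhibitors and 12.4 ± 5.64 FPKM in controls (log2 difference 1.26; limma adjusted p = 0.00947). The tryptase gene TPSB2 averaged 9.27 FPKM with inhibitors and 3.59 FPKM in controls, and TPSAB1, a near-identical tryptase whose reads may not be separable from it, averaged 3.22 FPKM with inhibitors and 1.24 FPKM in controls. CLC, the Charcot-Leyden crystal protein of eosinophils, averaged 5.99 ± 0.857 FPKM with inhibitors and 12.8 ± 2.67 FPKM in controls (log2 difference -0.97). GZMA, granzyme A of cytotoxic lymphocytes, was called higher in all 4 sets, and in SKNO-1 at 72 h it averaged 11.1 FPKM with inhibitors and 0.145 FPKM in controls. GZMA stayed at or below 0.672 FPKM in every control library. It passed the filter through inhibitor libraries alone, so a call could hardly be lower.

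Of 12 mature neutrophil markers 6 were tested. ITGAM, the CD11b integrin, rose in all 4 sets, by 0.81 (24 h) and 1.48 (72 h) in Kasumi-1 and by 0.86 (24 h) and 1.54 (72 h) in SKNO-1. It was a low gene, at or below 4.63 FPKM in every library and at or below 0.826 FPKM in controls. ITGAM thus passed the filter through inhibitor libraries alone, and a call could hardly be lower. MNDA rose in SKNO-1 by 1.01 at 24 h and 1.09 at 72 h. In Kasumi-1 at 24 h CXCR2, a chemokine receptor, rose by 0.28 and S100A9, a calgranulin, fell by 0.25. FCGR3B, CXCR1 and S100A8 stayed at or below 0.321 FPKM in every library. CSF3R was a high gene of this list, at 266 to 348 FPKM in Kasumi-1 and 71.7 to 153 FPKM in SKNO-1, and was not called in any set.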
